A study of Mus musculus with 38 samples.

Results

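Gain of the miR-17~92 microRNA cluster was compared with its loss in mouse CD4 T cells after 24 h of stimulation in culture. The comparison takes 8 of the 38 libraries of the series, chosen by their genotype and time labels: 4 libraries of T1792tg/tg cells and 4 of T1792delta/delta cells. T1792tg/tg mice carry Cd4-Cre and, inserted at Rosa26, a transgenic copy of miR-17~92 that the CAG promoter drives once Cre has removed a stop cassette flanked by loxP sites. T1792delta/delta mice carry Cd4-Cre and miR-17~92 alleles flanked by loxP sites, which Cre deletes. Cre is thus present in both groups, and both have an unaltered Cd28 gene as far as the labels say. The Cd4 promoter drives Cre from the thymocyte stage on, so the cells had developed with the gain or the loss, and Cre is not limited to the CD4 lineage. Naive CD4 T cells were enriched with a kit from lymph nodes and spleen, pooled within each single mouse, and the mice were of either sex with no age labelled. The cells were kept for 24 h on plate-bound antibodies against CD3 (0.5 µg/ml) and CD28 (0.2 µg/ml) in medium with interleukin-2 (50 U/ml). PolyA RNA was read per gene. Wild-type cells (wt) at 24 h, naive cells of the same genotypes, CD28-/- cells and CD28-/- cells with Cd4-Cre and the transgene (rescue) at 24 h are used below only for values set beside this comparison.

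MicroRNAs are short RNAs that guide Argonaute proteins to complementary sites in the 3′ untranslated region (UTR) of messenger RNAs, whose translation and stability then fall. The match to the seed, the bases near the 5′ end of the microRNA, decides most of the pairing. The miR-17~92 cluster is a single primary transcript that yields microRNAs of several seed families. In T cells it is induced by stimulation through the antigen receptor and CD28, and it is known for promoting expansion, interferon-gamma production and follicular help.

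The mature sequences of the cluster (RefSeq, GRCm38.p6, chromosome 14, plus strand) are shown because the sites sought in the changed genes are the reverse complements of their seeds. Bases 2 to 8, the seed, are in capitals.
miR-17-5p: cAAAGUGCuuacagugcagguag
miR-20a-5p: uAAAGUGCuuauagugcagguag
miR-18a-5p: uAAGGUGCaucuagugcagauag
miR-19a-3p: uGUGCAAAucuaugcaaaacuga
miR-19b-3p: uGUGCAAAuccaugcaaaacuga
miR-92a-3p: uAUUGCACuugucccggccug
The first pair shares a seed and is called the miR-17 family here, the miR-19 pair shares another, and miR-18a and miR-92a have a seed each. The files count RNA per gene, so levels of these mature microRNAs were not measured.

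The 24 h libraries held 25779254 to 26909473 counts in T1792tg/tg and 25671485 to 26774736 in T1792delta/delta. Levels are given as CPM, the usual share-of-library unit for read counts, on library sizes scaled by TMM, and differences as the log2 fold change ± SE of T1792tg/tg minus T1792delta/delta, so that positive values are higher in T1792tg/tg. A gene was called when its adjusted p was below 0.05, by edgeR's quasi-likelihood F test with Benjamini-Hochberg adjustment over all 13650 tested genes. Sex was read from sex-linked genes, and 3 of 4 T1792tg/tg libraries and 2 of 4 T1792delta/delta libraries were male. The T1792delta/delta library 2 stood apart from the other 3 in hypoxia-induced genes. It was the far library of its group for 7.96% of the named genes and list members, against at most 2.5% for any other of the 8 libraries, so the results that rest on it are given with and without it. The CD4 T cell markers Cd4, Cd3e, Cd3g and Lck were present in all 8 libraries, with Cd4 at 459.9, 380.3, 457 and 486 CPM in T1792tg/tg libraries 1 to 4 and at 613, 588, 642 and 578 CPM in T1792delta/delta libraries 1 to 4, in which order values of single libraries are given throughout. Cd4 was thus lower in T1792tg/tg (-0.44 ± 0.10, adjusted p = 4.1e-04), without overlap. In a bulk library, fewer cells of a type and less RNA per cell cannot be told apart.

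The engineered loci were read first. The precursor genes Mir17, Mir18, Mir19a and Mir20a had 65, 83, 14 and 57 counts over the 4 T1792tg/tg libraries and 0 counts in each T1792delta/delta library. Mir17 stood at 0.665, 0.31, 0.655 and 0.866 CPM in T1792tg/tg libraries 1 to 4. With 3 counts over the group as the floor for T1792delta/delta, this was at least 22.5-fold higher, and Mir18, Mir20a and Mir19a were at least 28.8-fold, 19.8-fold and 4.85-fold higher. The wt libraries held 0.134, 0.113, 0.156 and 0.12 CPM of Mir17, between the genotypes. Mir19a was too low to be tested. The floors cover counting error only. Mir17hg, the annotated host transcript (chromosome 14:115044390-115046728, GRCm38.p6), went the other way, at 39.1, 29.7, 37.1 and 33 CPM in T1792tg/tg against 162, 189, 167 and 169.8 CPM in T1792delta/delta (log2 fold change -2.31 ± 0.13, adjusted p = 1.8e-15) and 20.7 ± 2.44 CPM in wt. This model lies downstream of Mir17, Mir18, Mir19a and Mir20a and shares 0 bases with them, but it covers the mature miR-92a sequence (chromosome 14:115044476-115044496). The labels do not give the bounds of the deletion, so the Mir17hg count was not used to check it. Gt(ROSA)26Sor RNA, made from Rosa26, stood at 0.0387 to 0.0782 CPM in T1792tg/tg, 10.6 to 11.2 CPM in T1792delta/delta and 0 to 0.12 CPM in wt. The T1792delta/delta label names no change at Rosa26, and the origin of that level was not tested. Gh, the growth hormone gene, was present in both groups at 2.41 to 3.95 CPM and 2.79 to 6 CPM, with 0 to 0.089 CPM in wt, and did not pass the test between them (log2 fold change -0.25 ± 0.27, adjusted p = 0.51).

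**Figure D1:**
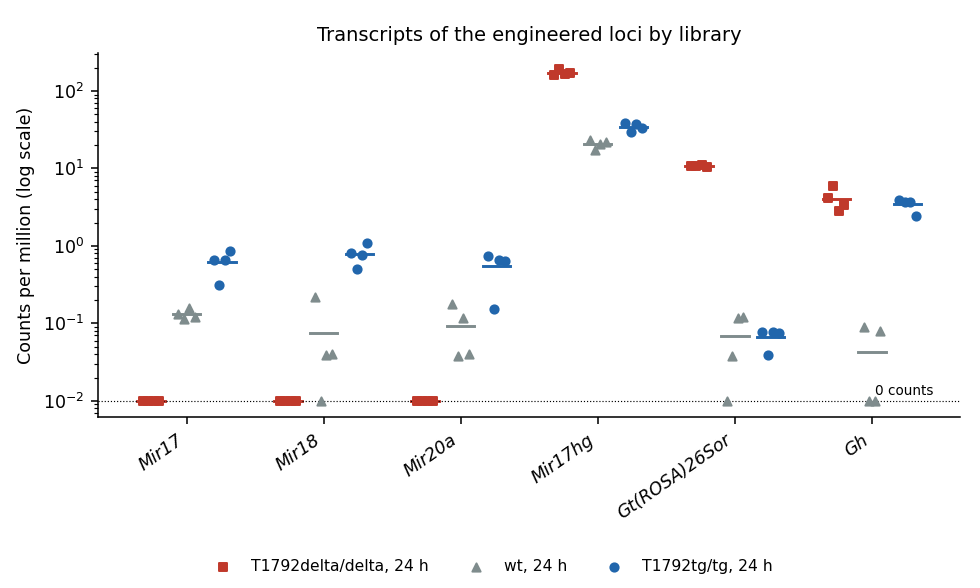
Levels in CPM (log scale) of engineered-locus transcripts in each 24 h library of T1792delta/delta (squares), wt (triangles) and T1792tg/tg (circles); short lines are group means of 4, and values of 0 counts are drawn on the dotted line. Mir17, Mir18 and Mir20a have 0 counts in all T1792delta/delta libraries, while Mir17hg and Gt(ROSA)26Sor are highest there.

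Between the genotypes 4632 of 13650 genes were called, 33.9% of those tested: 2263 were higher in T1792tg/tg (16.6%) and 2369 lower (17.4%). Of these, 303 were higher and 424 lower by at least 2-fold, and 100 and 80 by at least 4-fold. All 4 libraries of a genotype lay above all 4 of the other for 4561 genes (33.4% of those tested), of which 3838 were called. The median over all tested genes was 0.003 on the log2 scale. Against wt, which shares libraries with this comparison, T1792tg/tg had 12.5% of genes called, 833 higher (6.1%) and 880 lower (6.45%), and T1792delta/delta had 16.2% called, 1060 higher (7.77%) and 1156 lower (8.47%). Cd4-Cre is named above for both of these genotypes and not for wt, so every comparison with wt can differ in Cre as well.

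Other genes at the ends of the comparison had no list of their own. Akr1c18, a steroid-reducing enzyme of the aldo-keto reductase family, read 2.54, 2.01, 1.77 and 0.565 CPM against 26, 22, 34.7 and 41.3 CPM (log2 fold change -4.17 ± 0.27, adjusted p = 4.4e-14), with wt between at 10.2 to 13.1 CPM. The 3 genotypes thus stood apart. Picalm, an adaptor of clathrin-coated pits, stood at 200.0, 197, 194 and 190.3 CPM against 92.3, 90.4, 89.3 and 90.3 CPM and 128 to 136 CPM in wt (log2 fold change 1.11 ± 0.06, adjusted p = 1.4e-15). Tmem35a, a chaperone of acetylcholine receptors, was higher by 3.07 ± 0.22, Ly6c1, a surface antigen of the Ly6 family, by 3.23 ± 0.24 and Ajuba, a LIM-domain scaffold, by 2.97 ± 0.28. Igfbp7, a secreted binding protein, was lower by -2.50 ± 0.27. Csrp1, a LIM-domain protein of the actin cytoskeleton, was lower by -0.77 ± 0.05, at 86.7 to 94.7 CPM against 146 to 160.2 CPM. None of these genes overlapped between the groups, which for all but Picalm and Csrp1 was a condition of their choice.

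Genes with seed sites come next, since the cluster acts through them. Sites were sought on the transcript strand in the longest annotated 3′ UTR of each gene (GENCODE M21, at least 30 bases). A 7mer-m8 site is the reverse complement of bases 2 to 8 (GCACTTT for miR-17, GCACCTT for miR-18, TTTGCAC for miR-19, GTGCAAT for miR-92), and an 8mer site has an A after it. Of 12666 tested genes with such a UTR, 32.8% held at least 1 of these sites and 13.2% an 8mer. The 8 called genes of smallest p with an 8mer site are shown with 30 bases of their 3′ UTR (GRCm38, the strand of the gene), with the 8mer in capitals.
Cc2d1a (miR-17 family, chr8:84132969-84132998, minus): gggccctgcaaGCACTTTActtcctgcccc
Rcan3 (miR-17 family, chr4:135416222-135416251, minus): tattctcaatgGCACTTTAagtgacaaggt
Ginm1 (miR-17 family, chr10:7768145-7768174, minus): ttttataagaaGCACTTTAtgaaattctaa
Sema7a (miR-17 family, chr9:57962808-57962837, plus): ctcttctcaatGCACTTTAataatgtaaca
Nrbp1 (miR-19 family, chr5:31251309-31251338, plus): tgtttacttgtTTTGCACAgacgtgggcct
Aldh3a2 (miR-19 family, chr11:61244956-61244985, minus): tcataaaatatTTTGCACAaaatttcaatg
Gramd1b (miR-19 family, chr9:40294108-40294137, minus): tgaagcaggaaTTTGCACAtggtgtagaga
Il12rb2 (miR-19 family, chr6:67291459-67291488, minus): gaagctatcagTTTGCACAtaagcattctt
A match of letters is a description and does not show that the microRNA binds there. The first 3, Nrbp1, Aldh3a2 and Gramd1b were lower in T1792tg/tg, and Sema7a and Il12rb2 were higher.

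Rcan3, an inhibitor of the phosphatase calcineurin and a published target of the cluster, was the member of the published list with the smallest p. It stood at 25.2, 29.6, 28.6 and 24.1 CPM in T1792tg/tg libraries 1 to 4 and at 60.8, 59.8, 64.6 and 56 CPM in T1792delta/delta libraries 1 to 4, with 39.2, 35.2, 36.3 and 40.6 CPM in wt. The ranges of the 3 genotypes did not overlap, and the log2 fold change was -1.17 ± 0.08 (adjusted p = 9.6e-14). Cc2d1a, a scaffold and transcriptional repressor with an 8mer of the miR-17 family and another of the miR-19 family, read 27.6, 29.2, 30.4 and 27.9 CPM against 63.8, 58.6, 65.5 and 61.1 CPM (log2 fold change -1.11 ± 0.06, adjusted p = 1.8e-15). All of its wt libraries lay in between, at 37.3 to 41.2 CPM. Nrbp1, a pseudokinase, had 50.3, 49.4, 50.6 and 50.0 CPM against 105, 109, 116 and 116 CPM (log2 fold change -1.15 ± 0.07, adjusted p = 1.3e-14), with wt at 71.1 to 74.3 CPM. Aldh3a2, a fatty aldehyde dehydrogenase, had 15.1, 15, 16 and 14.8 CPM against 32, 32.6, 32.9 and 32 CPM (log2 fold change -1.09 ± 0.07). These levels spread little within a genotype and did not overlap between the groups, both of which a choice by smallest p favours. Ginm1, a membrane glycoprotein, and Gramd1b, a carrier of cholesterol from the plasma membrane, were lower by -1.11 ± 0.07 and -1.13 ± 0.08 on the log2 scale. Sema7a, a semaphorin anchored in the membrane, was higher at 69.6, 75.3, 94.7 and 94.3 CPM against 10.7, 19.3, 16 and 15 CPM although it holds an 8mer (log2 fold change 2.45 ± 0.17, adjusted p = 1.2e-13). Mast2, a kinase of the microtubule-associated family, Tbc1d4, which restrains glucose transporter traffic, and Pacsin1, an endocytic adaptor, were among the 10 genes of smallest p that were lower, at -1.29 ± 0.07, -1.83 ± 0.10 and -1.37 ± 0.08. Of those 10, 3 of the 8 with a 3′ UTR held a 7mer-m8 or 8mer site, and among the 10 higher genes of smallest p 4 of 8 did. Mast2 and Tbc1d4 held no such site, and Pacsin1 held a 7mer-m8 site of miR-18.

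Across all genes the share of calls went with the sites. Of 4154 genes with a site, 14.6% were called higher and 23.6% lower (median log2 fold change -0.03), against 18.2% and 15.3% of the 8512 genes without one (median 0.02). With an 8mer the shares were 13.4% higher and 29.1% lower over 1670 genes. Of the 10996 genes without an 8mer, 17.6% were higher and 16.4% lower. The families differed in these shares. Of the 559 genes with a miR-17 family 8mer, 34.3% were lower and 11.3% higher (median -0.16). For miR-92 33.6% of 348 were lower and 11.5% higher (median -0.12), and for miR-19 27.0% of 725 and 13.4% (median -0.07). For miR-18 19.2% of 208 were lower and 18.3% higher (median -0.02), both near the shares without an 8mer. UTR length moved with the classes, with a median of 2472 bases for genes with an 8mer and 999 bases for those without. Within the third of genes with the shortest UTRs, 44.3% of 106 genes with an 8mer were lower and 8.49% higher, against 15.96% and 13.99% of 4116 without. In the third with the longest UTRs, 25.9% of 1089 were lower and 14.8% higher, against 15.9% and 20.3% of 3133 without. No test was run on these classes, and no difference between families was tested.

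**Figure D2:**
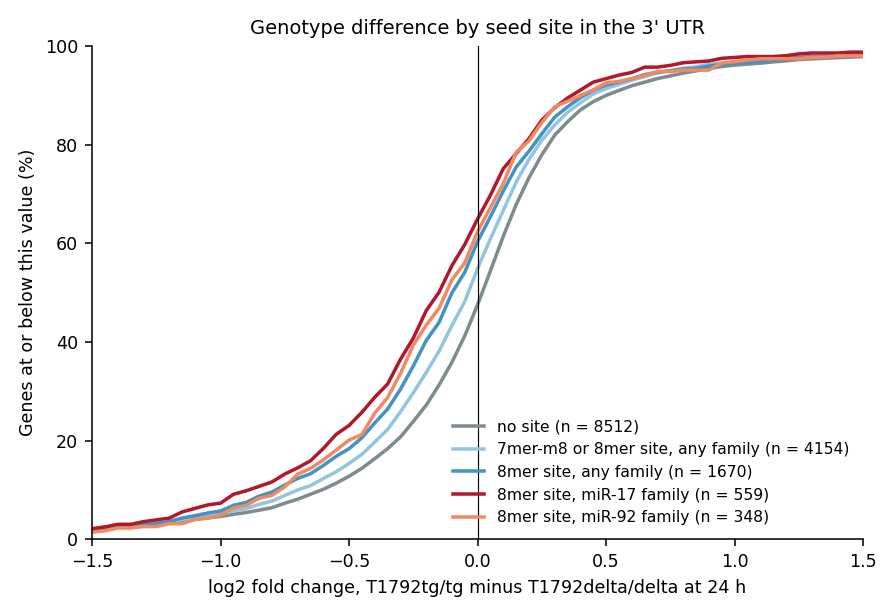
Cumulative share of genes (vertical axis, percent) at or below each log2 fold change of T1792tg/tg minus T1792delta/delta at 24 h (horizontal axis), by the seed sites in the 3′ UTR. Of the classes drawn, the 559 genes with a miR-17 family 8mer have the lowest median (-0.16) and the 8512 genes without a site the highest (0.02), while the curves meet or cross toward their ends.

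Of 28 published targets of the cluster, all tested, 10 were lower and 4 higher in T1792tg/tg, with a median of -0.19. Of all tested genes 17.4% were lower and 16.6% higher. Hbp1, a repressor of the cell cycle, read 5.59, 5.31, 5.93 and 5.8 CPM against 12.8, 17.7, 10.5 and 11.9 CPM (log2 fold change -1.23 ± 0.14, adjusted p = 1.0e-08). Mylip, a ubiquitin ligase that removes the LDL receptor, read 4.81, 4.18, 5.47 and 4.97 CPM against 11, 10.8, 7.77 and 8.98 CPM (log2 fold change -0.99 ± 0.11, adjusted p = 1.7e-08). E2f1, an activator of S phase genes, read 75.8, 78.9, 70.0 and 71.2 CPM against 124, 127, 129 and 122 CPM (log2 fold change -0.76 ± 0.08, adjusted p = 3.2e-09). In these 3 genes no T1792tg/tg library reached the lowest T1792delta/delta library. The others called lower were the Akt phosphatase Phlpp2 (-0.78 ± 0.12), the pro-apoptotic Bcl2l11 (-0.60 ± 0.10), the TGF-beta receptor chain Tgfbr2 (-0.56 ± 0.08), the cytokine receptor kinase Jak1 (-0.51 ± 0.07), the antiproliferative Btg3 (-0.43 ± 0.08) and E2f2 (-0.33 ± 0.13). E2f2 was called at adjusted p = 0.05, and its libraries overlapped. Bcl2l11 had 79 ± 3.85 CPM in T1792tg/tg, 79.1 ± 6.63 CPM in wt and 120.2 ± 1.87 CPM in T1792delta/delta, so that the wt level lay at that of T1792tg/tg (log2 fold change of T1792tg/tg minus wt -0.00 ± 0.10, adjusted p = 1). The 4 higher members were Socs1, an inhibitor of cytokine receptors, at 1.12 ± 0.17, Ikzf4 at 0.38 ± 0.15, Txnip at 0.28 ± 0.11 and Smad4 at 0.25 ± 0.07. The calls of E2f2, Ikzf4 and Txnip were lost in 9, 9 and 7 of 16 alternatives, and 2 members were higher without T1792delta/delta library 1 or 3 or without T1792tg/tg library 4. Of the 10 lower members 8 held a 7mer-m8 or 8mer site, as did 25 of all 28. Hbp1 and Btg3 were the lower members without one.

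Type 1 helper genes stood among the largest increases. Ifng, the interferon-gamma gene, headed the genes named for the size of their increase (mean of at least 5 CPM, no overlap), at 30.2, 86.1, 65.3 and 80.3 CPM in T1792tg/tg against 0.776, 3.66, 2.87 and 2.62 CPM in T1792delta/delta and 8.9, 20.9, 10.6 and 8.02 CPM in wt. Its log2 fold change was 4.72 ± 0.40 (adjusted p = 2.4e-11), and the 3 genotypes did not overlap. Tbx21, the type 1 lineage factor T-bet, read 165, 203, 164 and 156 CPM against 13.9, 29.3, 33.3 and 23.6 CPM (log2 fold change 2.78 ± 0.23, adjusted p = 2.1e-11). Its wt libraries, at 101 to 143 CPM, lay nearer to T1792tg/tg, and the comparisons with wt gave 0.56 ± 0.22 for T1792tg/tg (adjusted p = 0.088) and -2.22 ± 0.23 for T1792delta/delta (adjusted p = 1.9e-08). Eomes, a related factor of effector cells, read 28, 20.4, 24.5 and 29.4 CPM against 1.7, 3.05, 3.14 and 1.8 CPM (log2 fold change 3.40 ± 0.21, adjusted p = 1.8e-14). Il12rb2, the signalling chain of the interleukin-12 receptor, read 50.0, 66.6, 53.2 and 68.3 CPM against 4.28, 10.3, 6.54 and 5.73 CPM (log2 fold change 3.14 ± 0.21, adjusted p = 8.1e-14). Cxcr3, a chemokine receptor of type 1 cells, read 8.45, 8.13, 9.94 and 10.6 CPM against 0.739, 1.49, 1.19 and 0.935 CPM (log2 fold change 3.08 ± 0.30), and Batf3, a basic leucine zipper factor, 6.37, 14.5, 5.86 and 5.08 CPM against 0.222, 0.32, 0.689 and 0.524 CPM (log2 fold change 4.17 ± 0.42). In each of these genes the lowest T1792tg/tg library was above the highest T1792delta/delta library. For all but Tbx21 this was a condition of their choice.

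The helper lineage list had 12 of 22 members higher and 1 lower (median 0.44), beside 16.6% and 17.4% of all tested genes. The higher ones were not those of a single lineage. Maf, a factor of follicular and interleukin-10 producing cells, was higher by 2.45 ± 0.27, at 1.64 to 2.97 CPM against 0.107 to 0.727 CPM. Runx3, Il12rb1 and Il4ra were higher by 0.87, 0.88 and 0.81, and the type 2 factor Gata3 by 0.39 ± 0.15, a call lost in 7 of 16 alternatives.

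Cytokine genes were higher in 15 of 20 tested members and lower in 1 (median 0.94), beside 16.6% and 17.4% of all tested genes. Lta, lymphotoxin alpha, read 189, 179.5, 192 and 238 CPM against 40.3, 35.8, 55.6 and 64.4 CPM, with wt at 88.3 to 113 CPM (log2 fold change 2.03 ± 0.12, adjusted p = 8.6e-15). Lif, a cytokine of the interleukin-6 family, read 121, 143, 128 and 136 CPM against 28.7, 35.3, 39.9 and 36.7 CPM (log2 fold change 1.91 ± 0.15, adjusted p = 2.6e-12), and Ltb, the surface partner of lymphotoxin alpha, read 72.1 ± 7.12 CPM against 37.1 ± 3.8 CPM (0.96 ± 0.11). Il2, the growth factor gene, differed less, at 189.7, 170.3, 236 and 264 CPM against 129.6, 99.3, 139 and 144 CPM (log2 fold change 0.75 ± 0.16, adjusted p = 3.9e-04). The type 2, follicular and regulatory cytokines Il4, Il13, Il21 and Il10 were higher by 3.02, 2.26, 2.26 and 1.97 on the log2 scale, but at low levels, with Il4 at 1.09 to 2.29 CPM against 0.111 to 0.284 CPM. With a minimum mean of 5 CPM, fewer of the 20 could be tested, and 9 were called higher. Tnfsf11, which encodes RANKL, was the lower member, at 191, 119, 166 and 169 CPM against 274, 248, 298 and 286 CPM (-0.78 ± 0.20, adjusted p = 0.0022). Its wt level, 149.8 ± 15.8 CPM, was at that of T1792tg/tg (T1792tg/tg minus wt 0.11 ± 0.20, adjusted p = 0.79).

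**Figure D3:**
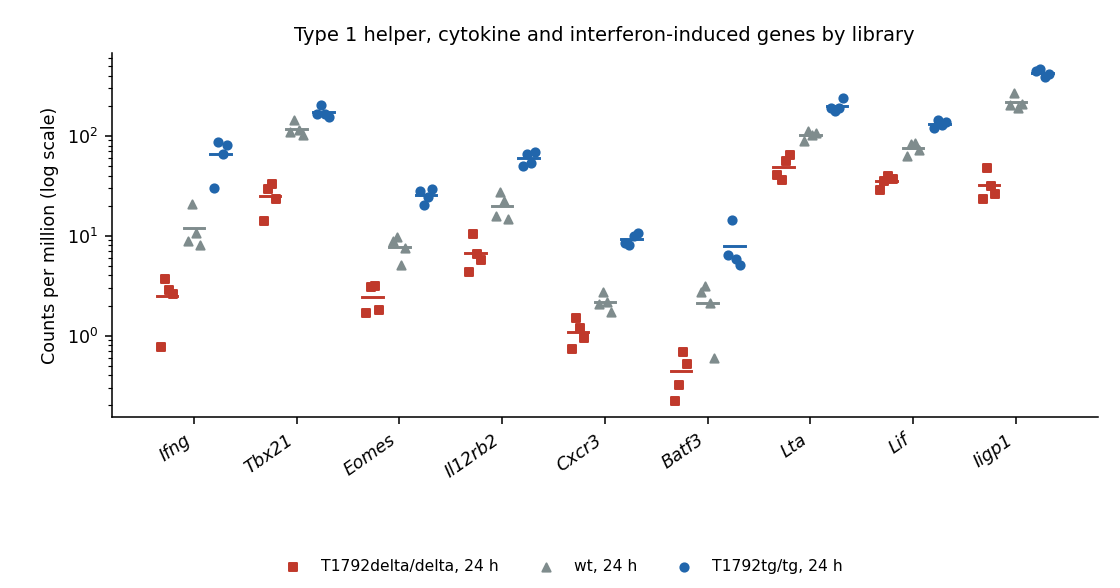
Levels in CPM (log scale) of 9 genes in each 24 h library of T1792delta/delta (squares), wt (triangles) and T1792tg/tg (circles), with lines at the means of 4 libraries. All T1792tg/tg libraries lie above all T1792delta/delta libraries in each gene, as in Eomes with 20.4 to 29.4 CPM against 1.7 to 3.14 CPM. For all but Tbx21, Lta and Lif this was a condition of their choice.

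Interferon-stimulated genes were higher in 15 of 23 members and lower in 1 (median 1.09), beside 16.6% and 17.4% of all tested genes. Usp18, which dampens interferon receptor signalling, read 6.45, 6.82, 7.28 and 6.59 CPM against 1.11, 2.7, 1.45 and 1.09 CPM (log2 fold change 2.09 ± 0.28, adjusted p = 4.3e-07). Zbp1, a sensor of nucleic acids, read 44.3, 41.8, 45.1 and 47.6 CPM against 14.8, 25, 18.5 and 17.5 CPM (log2 fold change 1.24 ± 0.13, adjusted p = 5.1e-09). Bst2, which tethers virus particles to the cell surface, was higher by 0.86 ± 0.12. The lower member was Isg20, an exonuclease, at -0.48 ± 0.15, which was not called without T1792delta/delta library 4. Some members were low at 24 h, such as Ifi44 at 0.155 to 0.866 CPM against 0 to 0.142 CPM. Iigp1, a guanosine triphosphatase induced by interferon-gamma, read 449, 463, 393 and 415 CPM against 23.2, 47.3, 31.8 and 26 CPM (log2 fold change 3.74 ± 0.26, adjusted p = 2.2e-13) with 189 to 271 CPM in wt, and the 3 genotypes did not overlap. The chemokine gene Cxcl10 was higher by 3.03 ± 0.35. Among the higher genes of smallest p were also H2-Q6, H2-Q8 and H2-Q5, nonclassical class I genes, at 2.52 ± 0.17, 1.90 ± 0.11 and 1.803 ± 0.12. Their values are uncertain, because the Q genes are near-identical copies between which short reads can be split.

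Receptors and markers of activated and memory cells included calls in both directions. Of the activation receptors and costimulators 7 of 24 were higher and 6 lower (median -0.01), beside 16.6% and 17.4% of all tested genes. Il2ra (CD25), which gives the interleukin-2 receptor its high affinity, read 931, 919.8, 904 and 902 CPM against 380.0, 371, 418 and 379.9 CPM, with wt between at 624 to 655 CPM (log2 fold change 1.24 ± 0.10, adjusted p = 4.0e-12). Cd44, an adhesion receptor of activated and memory cells, read 255, 266, 267 and 269 CPM against 90.3, 94, 119 and 85 CPM, while wt, at 85.2 to 124 CPM, overlapped T1792delta/delta (log2 fold change 1.44 ± 0.12, adjusted p = 2.1e-11). T1792delta/delta minus wt was -0.08 ± 0.12 for Cd44 (adjusted p = 0.69) and -0.73 ± 0.10 for Il2ra (adjusted p = 1.8e-06). Slamf6, a receptor of less differentiated cells, was lower, at 73.7, 66.5, 79 and 85.3 CPM against 147, 103, 138 and 141 CPM (-0.80 ± 0.09), as were Btla (-0.66 ± 0.09), Cd69 (-0.45 ± 0.10), Tnfrsf4 (-0.43 ± 0.12), Cd40lg (-0.40 ± 0.11) and Cd200 (-0.35 ± 0.09). Memory and effector markers were higher in 11 of 20 members and lower in 2 (median 0.60), with Ly6a at 336, 395, 425 and 378 CPM against 28.4, 92.8, 63.3 and 39.9 CPM (2.77 ± 0.24, adjusted p = 4.6e-11), Ly6c2 at 2.91 ± 0.23 and the cytotoxic granule gene Gzmb at 2.05 ± 0.25. The lower 2 were Anxa2 and S100a11. Anxa2 had a log2 fold change of -0.73 ± 0.27, and without T1792delta/delta library 2 it was 0.01 (adjusted p = 0.97). Among activation transcription factors 7 of 22 were higher and 3 lower (median 0.23). Irf8 read 613, 739.5, 655 and 609 CPM against 89.2, 228, 161 and 132 CPM (2.10 ± 0.20, adjusted p = 4.8e-10), Jun was higher by 1.49 ± 0.14 and Prdm1, which encodes Blimp-1, by 1.76 ± 0.30 at a low level of 1.08 ± 0.252 CPM against 0.314 ± 0.0681 CPM. Of the lower ones, Egr3 and Nr4a1, induced early by the antigen receptor, had -0.68 ± 0.12 and -0.48 ± 0.10. Fosl2, an AP-1 member, had -0.72 ± 0.20, and -0.30 without T1792delta/delta library 2 (adjusted p = 0.17).

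Cholesterol synthesis genes were lower in T1792tg/tg in 15 of 21 members and higher in 0 (median -0.34), with 0 higher by DESeq2 and at an unadjusted p below 0.05. Of all tested genes 17.4% were lower and 16.6% higher. Insig1, which holds back the sterol-sensing transcription factors, read 88.7, 79.6, 78.8 and 72.2 CPM against 156, 139, 158 and 113 CPM (log2 fold change -0.83 ± 0.13, adjusted p = 4.9e-06). The enzyme genes Nsdhl and Dhcr7 read 31.4, 27.4, 25.8 and 27.4 CPM against 45.2, 47.6, 42.6 and 38.3 CPM (-0.63 ± 0.09) and 47.7, 41.5, 42.2 and 40.6 CPM against 66.4, 65.5, 70.2 and 58.8 CPM (-0.60 ± 0.08), with no overlap in either. Fdps was lower by -0.55 ± 0.09, and Srebf2, the sterol-sensing factor itself, by -0.31 ± 0.09, with overlapping libraries. All of these differences were under 2-fold. T1792tg/tg minus wt had 2 of the 21 members lower (6.45% of all genes were), and T1792delta/delta minus wt had 9 higher (7.77% of all genes).

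Glycolysis and hypoxia genes were lower in 9 of 20 members and higher in 0 (median -0.24), beside 17.4% and 16.6% of all tested genes. The count of lower members rested in part on T1792delta/delta library 2. DESeq2 called 0 higher as well, and 1 had an unadjusted p below 0.05 in that direction. Slc2a3, a glucose transporter, read 44.2, 40.4, 46 and 46.5 CPM against 43.2, 255, 47.9 and 41.1 CPM, so that library 2 stood far above all others and the other 3 lay within or next to the T1792tg/tg range. Its log2 fold change was -1.13 ± 0.31 (adjusted p = 0.0043) and 0.01 without library 2 (adjusted p = 0.98). Bnip3, a mitophagy receptor induced by hypoxia, read 10.4, 10.5, 9.09 and 8.7 CPM against 18.5, 92.9, 12 and 13.2 CPM. It was lower by -1.82 ± 0.36, and by -0.59 without library 2 (adjusted p = 0.0075). Slc16a3, a lactate exporter, read 23.9, 27.2, 27.8 and 27.3 CPM against 50.3, 159, 51.5 and 47.3 CPM, and its log2 fold change of -1.54 ± 0.22 was -0.91 without library 2 (adjusted p = 1.8e-07). Tpi1, Hif1a and Pgam1 were lower by -0.67, -0.47 and -0.40, and by -0.45, -0.43 and -0.33 without it. Without library 2, 5 of the 20 members were lower and 2 higher. The aldolase gene Aldoc and the glycogen regulator Ppp1r3b, both among the largest decreases, were lower by -3.00 ± 0.36 and -2.07 ± 0.33 with library 2, and by -2.05 and -1.04 without it (adjusted p = 3.7e-09 and 1.5e-06).

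Cell cycle genes were lower in 13 of 32 members and higher in 4 (median -0.30), beside 17.4% and 16.6% of all tested genes. Rbl2, the pocket protein p130 that holds cells in quiescence, read 20.3, 21.4, 21.3 and 20.3 CPM against 45.1, 42.7, 38.6 and 39.7 CPM, with wt between at 27.6 to 31 CPM (log2 fold change -0.995 ± 0.08, adjusted p = 2.1e-11). E2f7, a repressor of the E2F family, read 13.5, 16.8, 15.3 and 17.2 CPM against 29.8, 28.8, 29.4 and 27.9 CPM (-0.89 ± 0.14, adjusted p = 6.5e-06), and the replication helicase gene Mcm3 737, 779, 764 and 767 CPM against 1106, 1039.8, 1134 and 1051 CPM (-0.51 ± 0.06, adjusted p = 8.0e-09). The lower members included brakes on division (Rbl2, Rbl1, Cdkn2c, Cdkn1b, E2f7 and E2f8) as well as genes of replication and mitosis (Mcm3, Mcm7 and Pcna, with Aurkb and Plk1 not called without T1792tg/tg library 3 or 4 and without T1792delta/delta library 3). For the inhibitor gene Cdkn1b the difference of -0.46 ± 0.15 was -0.14 without T1792delta/delta library 2 (adjusted p = 0.36). Higher in T1792tg/tg were Cdk6 (0.67 ± 0.16), Ccnd3 (0.31 ± 0.06), Mcm2 (0.24 ± 0.07) and Cdk4 (0.20 ± 0.08, adjusted p = 0.048), the last call being lost in 10 of 16 alternatives. Ribosome biogenesis genes were higher in 11 of 22 members and lower in 0 (median 0.18; 0 lower also by DESeq2 and at an unadjusted p below 0.05), with Rrs1, an assembly factor of the large subunit, at 210.1, 198, 183 and 179 CPM against 132, 106, 157 and 145 CPM (0.51 ± 0.08, adjusted p = 5.5e-06) and Rrp9 at 0.47 ± 0.08. Dkc1, which modifies ribosomal RNA, was higher by 0.29 ± 0.06 and Noc2l by 0.35 ± 0.05. Of the amino acid uptake and one-carbon genes 7 of 20 were higher and 1 lower (median 0.15), where 16.6% and 17.4% of all tested genes were. The large neutral amino acid transporter pair Slc7a5 and Slc3a2 was higher by 0.43 ± 0.12 and 0.39 ± 0.08, and Tyms, which makes thymidylate, was lower by -0.58 ± 0.16.

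The lists of signalling, survival, quiescence and microRNA genes held calls in both directions. Their counts stand beside 16.6% higher and 17.4% lower of all tested genes, and several, such as those of the NF-kB genes, lay near these shares. Of the calcineurin and NFAT genes 4 of 16 were higher and 3 lower (median -0.001). Beside the lower Rcan3, the catalytic calcineurin subunit genes went apart, with Ppp3cc higher by 0.76 ± 0.10, Ppp3ca by 0.36 ± 0.09 and Ppp3cb lower by -0.25 ± 0.07. PI3K and mTOR brakes had 5 of 20 higher and 1 lower (median 0.01), with Foxo1 at 0.60 ± 0.10, the ubiquitin ligase Cblb at 0.58 ± 0.12 and Phlpp2 the lower one. TGF-beta and SMAD genes had 7 of 21 higher and 3 lower (median 0.06). The receptor chains went apart there too, with Tgfbr3 at 50.0, 53.8, 48.8 and 53.8 CPM against 23, 24, 23.1 and 20.7 CPM (1.18 ± 0.10, adjusted p = 3.4e-11), Tgfbr1 at 0.60 ± 0.10 and Tgfbr2 at -0.56 ± 0.08. Smad3 was higher by 0.88 ± 0.09 and the corepressor Tgif1 lower by -0.82 ± 0.09. MAPK and RAS brakes had 2 of 20 higher and 7 lower (median -0.04), with the phosphatase Dusp1 at -0.78 ± 0.13 and Rasa1 at 0.67 ± 0.12. Among 20 NF-kB genes 4 were called higher and 4 lower (median -0.03), with the subunit gene Nfkb1 at 0.39 ± 0.06 and the inhibitors Nfkbie and Nfkbib at 0.37 ± 0.09 and 0.30 ± 0.08. Of the 4 lower ones 2 were called with a term for sex and 0 in the male libraries alone. The BCL2 family and death receptors had 2 of 21 higher and 3 lower (median 0.08). The death receptor gene Fas was higher by 0.65 ± 0.11 and the protective Bcl2l1 by 0.35 ± 0.08. Quiescence genes had 5 of 22 higher and 5 lower (median 0.04), with the interleukin-7 receptor gene Il7r at 1.20 ± 0.20 the chromatin organiser Satb1 at 0.67 ± 0.13 and the antiproliferative Btg2 at -0.72 ± 0.08. Of the microRNA machinery 1 of 20 was higher and 4 lower (median -0.02). Ago1, an Argonaute that carries microRNAs, read 87.4, 81.1, 95.7 and 90.2 CPM against 194, 182, 187 and 164 CPM (log2 fold change -1.04 ± 0.08, adjusted p = 3.6e-12), and wt, at 98.9 to 110.4 CPM, lay nearer to T1792tg/tg. Prkra, a partner of the processing enzyme Dicer, was lower by -0.76 ± 0.14 and Cnot7, a deadenylase, by -0.31 ± 0.06, while Dgcr8, of the nuclear processing complex, was higher by 0.36 ± 0.06.

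**Figure D4:**
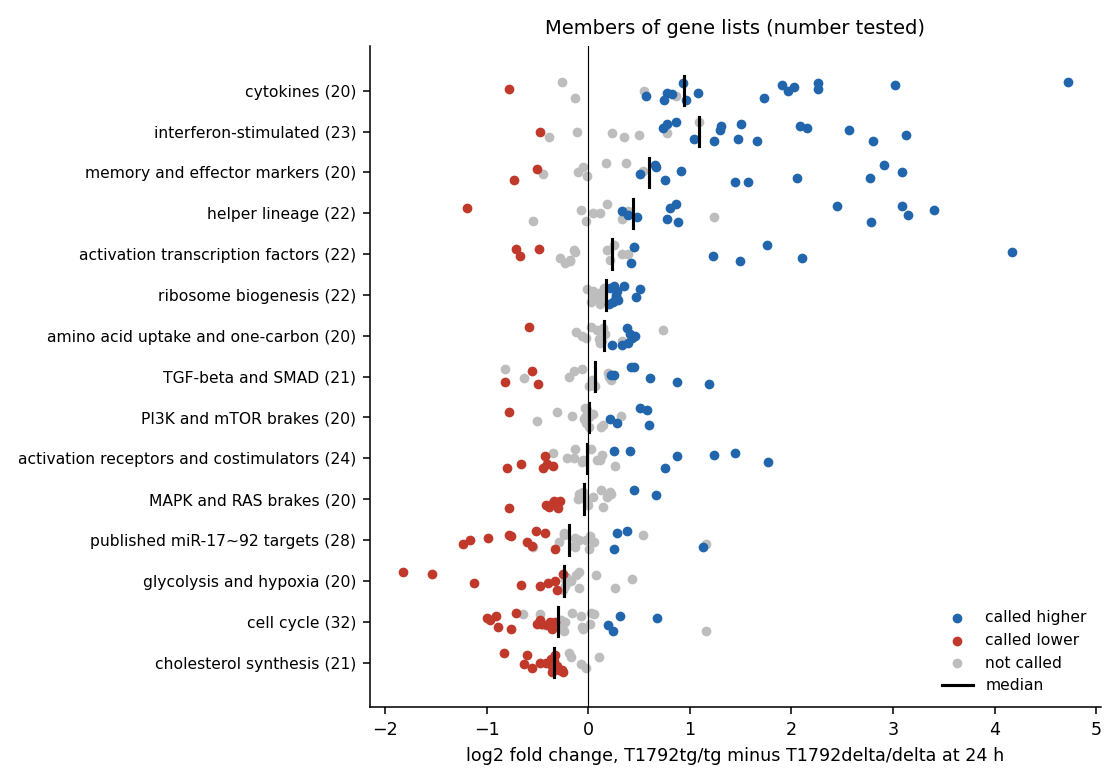
Log2 fold change of T1792tg/tg minus T1792delta/delta at 24 h (horizontal axis) for each tested member of 15 gene lists (rows, number tested in parentheses), coloured by call, with the median of each list as a black bar. Members of the cytokine list centre at 0.94 and those of cholesterol synthesis at -0.34, while the median over all tested genes is 0.003.

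Markers of other cells were read beside these groups, and their part in the differences was not tested. Of 13 B cell markers 0 were called by edgeR at 24 h, where 33.9% of all genes were, and DESeq2 called 0 as well. An unadjusted p below 0.05 was reached by 0 of them. Their summed level was 68.8 to 134.3 CPM in T1792tg/tg and 39.6 to 135.2 CPM in T1792delta/delta. Of 15 myeloid markers Mpeg1 was higher (1.98 ± 0.29, 6.51 to 11.2 CPM against 1.33 to 2.88 CPM) and Fcgr3 lower at 0 to 0.0775 CPM against 0.111 to 0.268 CPM. The Fcgr3 call was lost without T1792delta/delta library 3, without T1792tg/tg library 1 or 3 and in the male libraries alone. The macrophage marker Csf1r stood at 0.0775 to 0.154 CPM and 0.0355 to 0.115 CPM, and the summed level of the list was 47.8 to 52.2 CPM in T1792tg/tg and 37.1 to 50.2 CPM in T1792delta/delta. NK and CD8 cell markers had 5 of 12 higher and 1 lower (median 0.44), beside 16.6% and 17.4% of all tested genes. Their sum was 147.6 to 224.1 CPM against 46.8 to 90.0 CPM, with Gzmb alone at 109 to 162 CPM against 19.5 to 46.9 CPM. Of its defining markers, Ncr1 and Klrb1c of NK cells were low in both groups, at 0.0753 to 0.347 CPM and 0.226 to 0.925 CPM in T1792tg/tg and 0.148 to 0.462 CPM and 0.374 to 0.852 CPM in T1792delta/delta, and did not pass the test. Cd8a stood at 4.89 to 13.1 CPM and 2.77 to 9.43 CPM and did not pass the test, Cd8b1 was lower by -0.53 ± 0.13, and Klrk1 and Nkg7 were higher by 1.63 ± 0.37 and 0.91 ± 0.20. Of 12 regulatory T cell markers 6 rose and 2 fell (median 0.16), where 16.6% and 17.4% of all tested genes did. Ikzf2, which encodes Helios, was higher by 0.94 ± 0.17 and Nrp1 by 0.57 ± 0.16. The lineage factor Foxp3 was among the lower ones, at 8.02, 7.98, 6.63 and 3.28 CPM against 10.2, 7.46, 11 and 8.76 CPM, with overlap (-0.53 ± 0.19, adjusted p = 0.03, not called in 6 of 16 alternatives). Without T1792delta/delta library 3, without T1792tg/tg library 4 and in the male libraries alone, 0 of these markers were lower. Red cell globin messages were higher in T1792delta/delta, with Hba-a2 at 57.4, 35.6, 8.38 and 7.45 CPM against 4.85, 0.658, 1.73 and 0.791 CPM (log2 fold change -3.77 ± 1.03, adjusted p = 0.0041), and libraries 1 and 2 held most. Hba-a2 has a near-identical copy, so its count is uncertain. Hbb-bs and Hbb-b2 were lower in T1792tg/tg by -3.50 ± 1.14 and -3.75 ± 1.18, and neither passed the test without T1792delta/delta library 1. Of the stress and dissociation genes 3 of 13 were higher and 0 lower (median 0.13), beside 16.6% and 17.4% of all tested genes. The higher ones were Atf3 at 2.34 ± 0.34, Atf4 at 0.55 ± 0.12 and Hspa5 at 0.43 ± 0.08. Of the 12 CD4 T cell markers 5 rose and 3 fell (median -0.08), beside the same shares of all tested genes. They included Thy1 at 0.83 ± 0.10, the signalling chain gene Cd247 at 0.70 ± 0.07, the adaptor Lat at 0.47 ± 0.07 and the kinase Zap70 at -0.42 ± 0.06.

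The genotypes differed before stimulation as well, and the difference between the states was tested as an interaction. The labels do not say whether same-numbered naive and 24 h libraries come from 1 mouse, and the test treats them as independent. Of 13650 genes 4254 were called between naive T1792tg/tg and naive T1792delta/delta cells (31.2%; 15.5% higher and 15.6% lower), and for 3272 genes (24%) the genotype difference itself differed between 24 h and naive. Of the 2263 genes higher at 24 h, 704 were also higher in naive cells, 224 were lower there and 1335 were not called, and 43.7% were called in the interaction. Of the 2369 genes lower at 24 h, 772 were also lower in naive cells, 209 were higher and 1388 were not called, and 43.3% were called in the interaction. Ifng had 7.1 ± 3.77 CPM in naive T1792tg/tg and 4.1 ± 1.27 CPM in naive T1792delta/delta cells (0.80 ± 0.39, adjusted p = 0.12), and the interaction was 3.92 ± 0.55 (adjusted p = 2.2e-06). Eomes and Cxcr3 were already higher in naive cells, by 1.63 ± 0.19 and 1.91 ± 0.29. Tbx21, Il12rb2 and Batf3 did not pass the naive test, and their interactions were 2.32 ± 0.39, 2.66 ± 0.33 and 4.14 ± 0.62.

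Published targets of the cluster had 14 of 28 members lower and 3 higher in naive cells (median -0.24), beside 15.6% and 15.5% of all tested genes. In the interaction 11 of the 28 were called, where 24% of all genes were. Rcan3 was lower by -1.36 ± 0.08 in naive cells, and its interaction of 0.20 ± 0.11 did not pass the test (adjusted p = 0.2). Nor did those of Mylip, Ginm1 and Tgfbr2, with naive values of -0.97 ± 0.10, -1.08 ± 0.07 and -0.70 ± 0.08 and interactions of -0.02 ± 0.14, -0.02 ± 0.10 and 0.14 ± 0.11. A test that misses the threshold does not show that the differences are equal. Of genes with an 8mer site 25.2% were lower and 11.1% higher in naive cells, where 14.8% and 16.8% of genes without one were. The interaction was positive for Bcl2, a survival gene, which stood at 113 ± 10.1 CPM against 266 ± 37.9 CPM in naive cells and at 62.8 ± 3.1 CPM against 56.5 ± 3.66 CPM at 24 h (1.39 ± 0.12, adjusted p = 1.1e-10). Pim1, a survival kinase, was lower in naive T1792tg/tg cells by -1.16 ± 0.10 and higher at 24 h by 0.93 ± 0.10, and Il7r turned likewise from -1.498 ± 0.17 to 1.20 ± 0.20. Ddr1, a collagen receptor, differed in naive cells (-2.13 ± 0.12) and did not pass at 24 h (0.11 ± 0.11). Plaur, the urokinase receptor, differed at 24 h (2.76 ± 0.20) and did not pass in naive cells (-0.33 ± 0.17). In the other direction, Ephx1, an epoxide hydrolase, was higher in naive T1792tg/tg cells by 0.35 ± 0.10 and lower at 24 h by -1.81 ± 0.11, and Oxct1, a ketone body enzyme, turned from 0.36 ± 0.06 to -0.71 ± 0.06. Ribosome biogenesis genes were lower in 12 of 22 members in naive T1792tg/tg cells and higher in 11 at 24 h. The interaction was called for 16 of the 22.

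**Figure D5:**
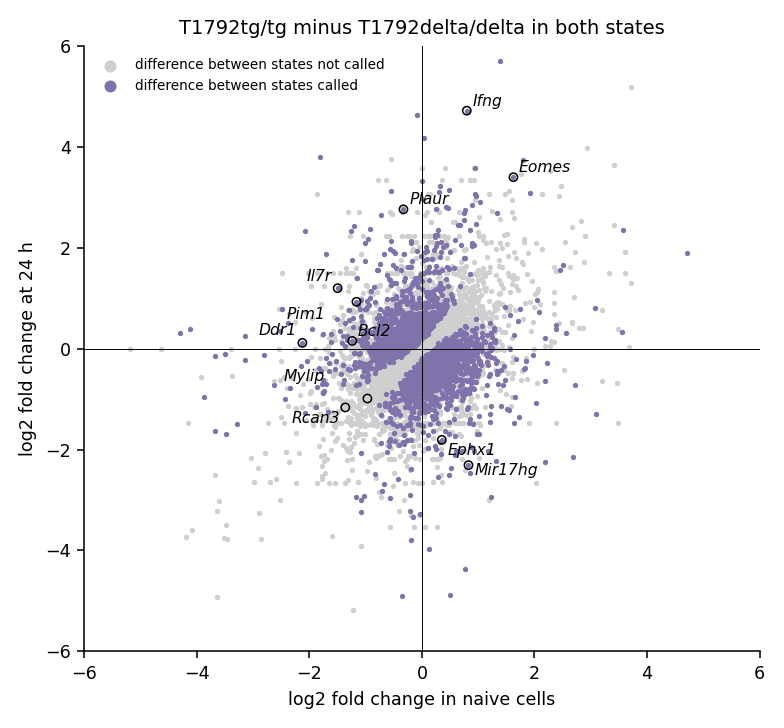
Log2 fold change of T1792tg/tg minus T1792delta/delta in naive cells (horizontal axis) and at 24 h (vertical axis) for each tested gene with both values within 6 of 0 (7 genes lie outside); purple marks genes whose difference between the states was called and circles mark named genes. Ifng and Plaur lie high on the vertical axis near 0 on the horizontal, Rcan3 and Mylip lie in the lower left, and Pim1 and Il7r in the upper left.

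The same transgene on a CD28-/- background gave a comparison with no library in common: rescue (3 libraries, all female) minus CD28-/- (4 libraries, all female) at 24 h, with 1300 genes higher and 1210 lower (18.4% called). Of the 2263 genes higher in T1792tg/tg than in T1792delta/delta, 761 were also higher in rescue (33.6% of the first list and 58.5% of the second, against 9.52% of all genes) and 34 were lower. Of the 2369 lower genes, 761 were also lower in rescue (32.1% and 62.9%, against 8.86% of all genes) and 90 were higher. In this comparison the low side carries an unaltered cluster in place of a deleted one. Cd4-Cre is named above for rescue and not for CD28-/- cells, so these groups can differ in Cre as well. Tbx21 had 85.3 ± 30.6 CPM in rescue against 7.46 ± 1.85 CPM in CD28-/- cells (3.52 ± 0.26, adjusted p = 1.0e-11), Il12rb2 25.1 ± 7.44 CPM against 2.62 ± 0.542 CPM (3.26 ± 0.23) and Ifng 11.4 ± 4.69 CPM against 1.76 ± 0.21 CPM (2.69 ± 0.43). Rcan3, Cc2d1a, Nrbp1 and Aldh3a2 were lower in rescue by -0.72 ± 0.08, -0.41 ± 0.07, -0.70 ± 0.08 and -0.62 ± 0.08. Cell cycle genes differed between the comparisons, with 12 of 32 higher and 2 lower in rescue. Cholesterol synthesis genes were higher in 3 of 21 members and lower in 0 in rescue (median 0.14), beside 9.52% and 8.86% of all genes. In T1792tg/tg against T1792delta/delta 15 of the 21 were lower. No test of these differences between comparisons was run. The count of 2510 genes was 1300 without rescue library 2 and 1595 without rescue library 3.

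Genes near the engineered loci were counted because flanking DNA can differ between mouse lines. Within 10 Mb of Mir17hg 17 of 32 tested genes were called (53.1%), and within 10 Mb of Gt(ROSA)26Sor 37 of 103 (35.9%), against 33.9% in the rest of the genome. The medians were 0.003 and -0.04 on the log2 scale. These counts include the engineered genes themselves. Mir17hg, Mir17, Mir18 and Mir20a, all called, are among the 17, and Gt(ROSA)26Sor is among the 37. The shares are thus not those of flanking genes alone. Within 5 Mb of Mir17hg, with the same engineered genes included, 4 of 11 tested genes were higher and 2 lower.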

How the data were processed

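Raw counts per gene of 38 polyA, stranded, single-end libraries were used as the authors deposited them, as whole numbers in a single table. The tools listed by the submitters' processing notes are STAR 2.5.2a, FastQC 0.11.5, edgeR 3.24.3 and R 3.5, with the mm10 genome. Neither the counting tool nor its annotation is given in the sources used. Gene identifiers were matched to RefSeq (GRCm38.p6) for 23968 of 24028 rows, and the unmatched rows held 0.0749% of counts. Groups came from the genotype and time labels.

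All 38 libraries were fitted with 1 mean per group in edgeR 4.0.16 (R 4.3.3, limma 3.58.1; TMM scaling, filterByExpr, quasi-likelihood F test) on 13650 genes, with Benjamini-Hochberg adjustment over all of them. Each mean ± SD is over n = 4 libraries (n = 3 for rescue). Each library comes from a single mouse, per the labels. Replicate numbers do not pair the genotypes. Seed sites were sought in GENCODE M21 3′ UTRs of at least 30 bases. Totals of 22267060 to 28020721 counts in the 24 h groups make counting error small except for genes of a few counts. The alternatives were RLE scaling, DESeq2 1.42.0, no filter, a mean of at least 5 CPM, the compared groups alone, a replicate block, a sex term, other site and distance definitions and each library left out. The male libraries alone, and a block within each genotype for the interaction, were added after the data were seen.

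Named genes were the engineered loci with Cd4 and Cd28, the 10 largest changes and 10 smallest p in each direction, the 4 smallest p of each of 28 gene lists, 8 genes with 8mer sites and 5 genes in each direction of the difference between states. Other list members were named after their values were seen, and a few genes that the rules select are not reported here. The members and lists were chosen with earlier results of these data known.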

Additional observations from a re-analysis of the deposited data

Results flagged for a closer look

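Values of a single library that lay far from the other 3 of its group, by Dixon's criterion, were found in 33 of the 354 groups tested for the genes named. Chance alone flags about 1 in 20 groups when genes are chosen without regard to their values. Some genes here were named after their values were seen, so that rate does not hold for this set. T1792delta/delta library 2 was the far one for 16 of the 33. It was the highest for Slc2a3 (254.6 CPM), Slc16a3 (159.0 CPM), Bnip3 (92.9 CPM), Tpi1 (1595 CPM), Aldoc (14.7 CPM), Ppp1r3b (22.3 CPM), Anxa2 (47.0 CPM), Cdkn1b (35.9 CPM), Fosl2 (83.0 CPM), Atf3 (30.4 CPM), Il7r (9.09 CPM), Ikzf4 (9.87 CPM), Tmem35a (4.79 CPM) and Il21 (0.675 CPM). It was the lowest for Mast2 (151.0 CPM) and Cd200 (448.3 CPM).

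In the other T1792delta/delta libraries, library 1 was the lowest for Pacsin1 (38.9 CPM), Bst2 (47.2 CPM) and Nkg7 (7.76 CPM), library 3 the highest for Il4ra (174.2 CPM) and library 4 the lowest for Cd28 (298.9 CPM). Among T1792tg/tg libraries, library 1 was the highest for Mir19a (0.196 CPM) and the lowest for Noc2l (689.0 CPM), Slc16a3 (23.9 CPM) and Il12rb1 (215.4 CPM). Library 2, the female one, was the highest for Batf3 (14.5 CPM), Satb1 (570.7 CPM) and Atf3 (96.2 CPM) and the lowest for Gt(ROSA)26Sor (0.0387 CPM), Hspa5 (1226 CPM) and Egr3 (47.5 CPM). Library 3 was the highest for Cd8a (13.1 CPM), and library 4 the lowest for Ikzf2 (9.75 CPM).

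The genotype difference differed between 24 h and naive cells for 3272 genes by the interaction term of edgeR. Among those of smallest p, the difference at 24 h minus that in naive cells was 3.09 for Plaur, 2.24 for Ddr1, 2.09 for Pim1, 1.39 for Bcl2 and 0.94 for Picalm on the log2 scale. It was -3.14 for Mir17hg, -2.16 for Ephx1, -1.07 for Oxct1 and -0.81 for Csrp1.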

How the results depend on the processing

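The 4632 calls between the genotypes at 24 h ranged from 4146 to 4400 with each library left out, and numbered 4654 with RLE scaling, 4844 with DESeq2, 4279 with no filter, 4068 with a minimum mean of 5 CPM and 4647 with a term for sex. These fits kept 82.3% to 99.3% of the calls in the same direction. In the male libraries alone (3 against 2) 2775 genes were called, 643 of them lower with a site (982 above) and 29 near the engineered loci (54 above). With 8mer sites alone 486 genes with a site were lower, and within 5 Mb of the loci 29 genes were called, both by construction fewer. The compared groups alone gave 2631 genes for T1792tg/tg against wt (1713 above) and 3851 for rescue against CD28-/- (2510 above); the cause was not tested.

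With single libraries left out, the list members called ranged from 213 to 227 (233 above), the genes with a site called lower from 876 to 954, those near the loci from 46 to 51, the naive calls from 3652 to 4260 and the interaction from 2927 to 3333. For T1792tg/tg against wt the range was 962 (without T1792tg/tg library 4) to 1710, with 1092 without T1792tg/tg library 3 and also without wt library 1. For T1792delta/delta against wt it was 1388 (without T1792delta/delta library 1) to 2278, and for rescue against CD28-/- 1300 to 2561. The Slc2a3 log2 fold change ranged from -1.38 to 0.0061 and the Anxa2 log2 fold change from -0.93 to 0.012, with the sign turned without T1792delta/delta library 2. Without that library, stress genes were higher in 5 members (3 above) and calcineurin genes in 2 (4 above). NF-kB genes were lower in 1 or 2 members in 6 of the 8 fits that leave out a 24 h library. In the male libraries alone, ribosome biogenesis genes were higher in 6 (11 above), amino acid genes in 3 (7 above) and PI3K brakes in 1 (5 above), and 21 of the named calls were lost. Same-numbered T1792tg/tg and T1792delta/delta libraries at 24 h had deviations correlated at 0.05, -0.15, -0.07 and -0.09, so the numbers were not taken as pairs; a replicate block gave 4591 calls at 24 h and 3249 for the interaction. Same-numbered naive and 24 h libraries correlated at 0.21 to 0.31 in T1792delta/delta and 0.03 to 0.25 in T1792tg/tg. Differently numbered ones correlated lower in T1792delta/delta, at -0.22 to 0.13, and at -0.15 to 0.06 in T1792tg/tg. With same-numbered naive and 24 h libraries taken as 1 mouse, a replicate block within each genotype gave 3172 calls for the interaction, with 91.1% of the 3272 calls kept. Genes of few counts, such as Mir19a, Fcgr3 and Ifi44, are limited by depth.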
